A study of Mus musculus with 360 samples.

Results

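Single C1498 cells picked 5 h after heating at 45 °C were divided by the RNA of 8 genes of mitosis, and the mitotic-gene-high cells were set beside the mitotic-gene-low cells. The group held 61.9% of the 360 cells of the series. A cell entered if it had at least 5000 UMIs (counted RNA molecules) and if Rn45s, the ribosomal RNA precursor, made up at most 30% of them. One criterion left out 1 cell and the other 6 cells, and 96.9% of the group remained. The mitotic score of a cell was the summed count of Ccnb1, Cdk1, Plk1, Aurka, Cdc20, Ube2c, Tpx2 and Cenpf divided by all its UMIs, in counts per 1e6 UMIs (CPM). The 71 cells at or above the 67th percentile are called high, the 71 at or below the 33rd low, and the 74 between them middle. The classes were thus chosen by measured values, so the 8 score genes are given as a description, and what follows concerns chiefly the genes outside the score.

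C1498 is a mouse acute myeloid leukemia line, and no genetic change to it is named. Cells were warmed to 45 °C for 10 min, or handled at 37 °C as the control, imaged over time, and taken singly by an automated picking instrument. The labels give 10 groups by temperature and time (-1 h, 1 h, 5 h, 10 h or 15 h relative to heating), and each sample is 1 cell. The 51 unheated cells are those of the 5 groups at 37 °C and the 6 cells of the 45 °C arm taken before heating. No label names a culture, so the 5 h cells are 1 sample, high and low cells are parts of it, and no test between them is made. Intervals are exact 95% intervals and say nothing of how cultures vary. Those of CPM and ratios cover counting error, and those of shares of cells treat each cell as a separate draw.

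RNAs of mitotic genes build up as a cell passes from G2 into mitosis. The transcription factors B-MYB and FOXM1, with the MuvB complex, then act on promoters that carry CCAAT boxes and the cell cycle homology region. Genes of DNA replication are switched on earlier, by E2F factors around the entry into S phase, so a population that grows without synchrony holds cells at either end of this programme. Heat shock activates HSF1, which binds heat shock elements and raises the transcription of chaperones such as HSP90, HSP70 and the mitochondrial pair HSP60 and HSP10.

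The upstream sequences of 4 of the score genes and of the HSP10 gene Hspe1 are shown for the elements of the 2 programmes that they hold. Each run holds the 150 bases before the first listed start of the gene, from RefSeq on GRCm38.p6, written 5′ to 3′ on the strand of the gene. Capitals mark the letters CCAAT or TTTGAA (the cell cycle homology region) on either strand and, in Hspe1, a heat shock element, searched as 3 GAA units in a row with NN between them and alternating strand, from either strand. Ccnb1 (cyclin B1) has its run at chr13:100786487-100786636 on the minus strand, Cdk1 (its kinase) at chr10:69352913-69353062 on the minus strand, Cdc20 (an activator of the anaphase-promoting complex) at chr4:118437344-118437493 on the minus strand, Ube2c (the ubiquitin-conjugating enzyme of that complex) at chr2:164769779-164769928 on the plus strand, and Hspe1 at chr1:55087998-55088147 on the plus strand.
Ccnb1: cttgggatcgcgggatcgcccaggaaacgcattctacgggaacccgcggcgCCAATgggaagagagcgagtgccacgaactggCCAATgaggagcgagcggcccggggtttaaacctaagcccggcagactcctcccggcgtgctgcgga
Cdk1: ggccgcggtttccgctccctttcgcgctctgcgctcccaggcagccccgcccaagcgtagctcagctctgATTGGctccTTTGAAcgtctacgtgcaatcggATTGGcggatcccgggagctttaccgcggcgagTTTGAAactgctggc
Cdc20: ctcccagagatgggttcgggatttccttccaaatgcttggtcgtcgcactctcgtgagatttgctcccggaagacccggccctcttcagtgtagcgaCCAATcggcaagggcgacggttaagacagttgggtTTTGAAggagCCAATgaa
Ube2c: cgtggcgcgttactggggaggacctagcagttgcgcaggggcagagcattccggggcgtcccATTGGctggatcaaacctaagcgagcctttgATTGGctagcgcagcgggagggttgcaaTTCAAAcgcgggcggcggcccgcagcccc
Hspe1: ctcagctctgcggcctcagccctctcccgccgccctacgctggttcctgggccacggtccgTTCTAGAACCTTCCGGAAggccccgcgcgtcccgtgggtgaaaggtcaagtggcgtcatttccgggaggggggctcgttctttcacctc

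Within 250 bases before the start, CCAAT stood in all 7 score genes that the promoter table held (Tpx2 was not matched), and in 6 of them more than once. It stood in 60 of 93 matched mitosis genes outside the score (64.5%), 29 of 48 S phase genes (60.4%), 13 of 33 heat shock chaperone genes (39.4%) and 34.5% of all 27025 promoters. TTTGAA stood in 3 of the 7 score genes and in 28 of the 93 other mitosis genes (30.1%), against 14.6% of the S phase genes and 16.3% of all promoters. Among the 5835 matched genes that were measured (defined below), CCAAT stood in 37.8% and TTTGAA in 10.7%. The heat shock element, rare at 0.400% of all promoters, stood in 1 of 33 heat shock chaperone genes, in 1 of 48 S phase genes and in Hspe1, where 2 matches overlap, and in 0 of the 93 mitosis genes. CCAAT was thus about as frequent in S phase as in mitosis genes, and Hspe1 is not typical of the chaperones. These matches describe letters in a short window. Hsp90aa1, Hsp90ab1 and Hspa8 were not matched in the table.

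The mitotic score of the heated 5 h cells that passed the filters ran from 0 to 2964 CPM, and the classes are ranges of a continuous measure, not types. High cells had a median of 1508 CPM (lowest 990.5, highest 2964), middle cells 594.1 CPM (426.7 to 987.3) and low cells 235.1 CPM (0 to 400.8). At the upper cut of 987.4 CPM, the nearest cells stood at 990.5 inside and 987.3 outside, and 15 cells lay within 10% of it. At the lower cut of 425.4 CPM, the nearest stood at 400.8 inside and 426.7 outside, with 13 cells within 10%. The median high cell had UMIs of all 8 score genes (55 UMIs in all) and the median low cell of 3 of them (5 UMIs). In 3 low cells no score gene had a value.

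Unheated cells, pooled over 6 groups, covered much of the same range, with a larger share of high scores. Against the cuts of the heated 5 h cells, 27 of 51 unheated cells reached the upper cut (52.9%, exact 38.5 to 67.1) and 9 lay at or below the lower one (17.6%). The groups differed: 7 of 11 cells were high in each of the 37 °C groups at -1 h, 1 h and 15 h. Of the 6 control cells taken at 5 h, 3 were high and 1 was low, and at 10 h 2 of 6 were high and 0 low. In the 45 °C arm before heating 1 of 6 cells was high and 2 were low. Among heated cells, 5 of 13 were high and 7 low at 1 h, 22 of 45 high and 10 low at 10 h, and 10 of 19 high and 3 low at 15 h. In the heated 5 h cells the cuts themselves set the shares, at 32.9% each.

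**Figure D1:**
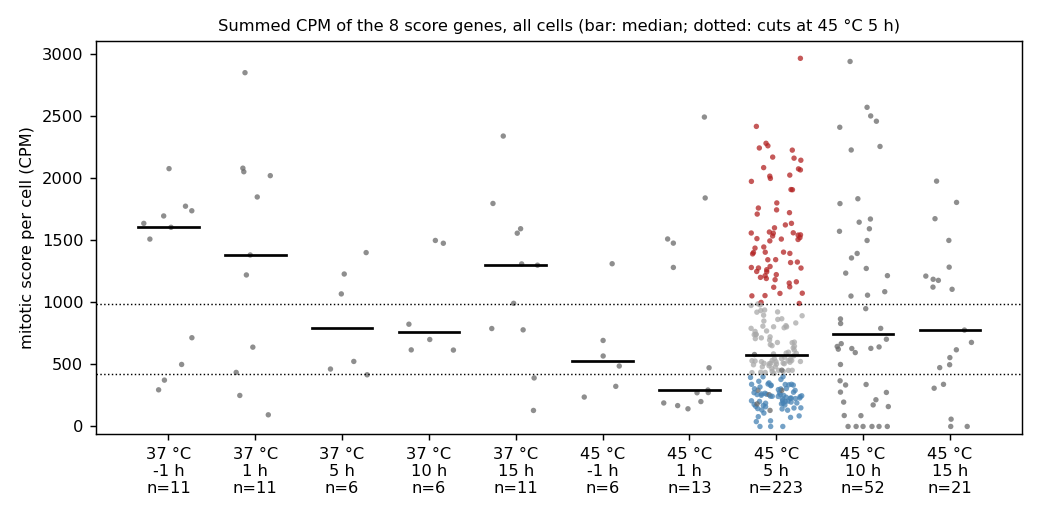
Mitotic score per cell (summed CPM of the 8 score genes, vertical axis) in the 10 groups of temperature and time, with every cell as a point, the group median as a bar and the cuts of the 45 °C 5 h cells as dotted lines. Coloured points are the high and low classes and grey points at 5 h the cells between them or left out. The 5 h cells span 0 to 2964 CPM, and 27 of the 51 unheated cells lie at or above the upper line.

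High cells held more UMIs than low cells, and deeper sequencing and more RNA per cell cannot be told apart here. Their median was 35662 UMIs (lowest 8571, highest 74648) against 23895 in low cells (8829 to 53705), and 54 of 71 high but 15 of 71 low cells lay above the median depth of 29568.5 UMIs. The rank correlation of score and depth over the cells of all 3 classes, which share 1 sample, was 0.51. Ribosomal precursor RNA was alike, with a median of 11.7% of UMIs in high and 12.8% in low cells. Ratios are therefore also given after taking the percentiles anew within the shallower and the deeper cells, divided at the median depth (36 high and 36 low in each), where the median depths were 24470 and 19930 UMIs, and 39948 and 34856 UMIs. As a sum, leukocyte and T cell RNAs stood at close levels: the summed CPM of 13 such markers was 1849 in high and 1744 in low cells. Coro1a alone held 970.8 and 940.6 CPM. Ptprc (301.6 against 230.4 CPM) and Cd96 (94.9 against 60.4) were higher in high cells, and Cd3e (216.1 against 235.6) and Cd3g (194.9 against 210.6) lower. Cd4, Cd8a and Thy1 were at 0 in both classes. Cd3d had 17 UMIs in high and 9 in low cells, and Cd2 had 10 and 3. Markers of other cell types (24 genes) summed to 21.8 CPM in high cells, with a range per cell of 0 to 133.9, and to 30.8 CPM in low cells, with a range of 0 to 147.8; 8 of the 24 had a value in each class. Of the 9 myeloid markers listed, Spi1, Csf1r, Lyz2, Elane, Kit, S100a8 and S100a9 were at 0 in both classes, although the line is labelled as myeloid leukemia. The other myeloid markers were Mpo, with 2 UMIs in high and 6 in low cells, and Prtn3, with 2 and 3. Cd79a, a B cell marker, had 9 UMIs in high, 17 in low and 0 in unheated cells. In 13 high, 2 middle and 0 low cells, the RNAs of 5 chaperones stood no higher than in unheated cells although the label gives heating; their values are given with the chaperones.

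All 8 score genes were higher in high cells, as the choice of cells requires. Summed over cells, Ccnb1 stood at 179.1 CPM in high against 11.5 in low cells, Plk1, the polo kinase of mitotic entry, at 200.4 against 11.5, and Ube2c at 205.5 against 12.7. Cdc20 stood at 354.7 against 62.1 CPM, Tpx2, which promotes spindle assembly, at 198.03 against 29.9, and the kinase gene Aurka at 66.1 against 6.33. The differences were smallest for Cdk1 (141.3 against 44.3 CPM) and for the kinetochore gene Cenpf (226 against 60.98). Per cell, the median of Ccnb1, Plk1, Aurka, Ube2c and Tpx2 was 0 in low cells. Unheated cells stood between the classes for Ccnb1 (161.6 CPM) and Plk1 (157.9 CPM) and above both for Cdk1 (175.7 CPM).

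Outside the score, 7300 genes were measured, meaning at least 20 UMIs over both classes and at least 10 CPM in one of them. Of these, 759 (10.4%) stood at least 1.5-fold higher in high cells and 360 (4.93%) at least 1.5-fold lower. The median log2 ratio of high over low was 0.07, and 4247 genes were higher and 3053 lower in high cells, the background for the list counts below. Of the mitosis genes outside the score, 90.8% were measured. In high cells 93 of these were higher and 15 lower, 76 (70.4%) were at least 1.5-fold higher and 2 at least 1.5-fold lower, and the median log2 ratio was 1.10. Per cell, the summed CPM of these genes was 7106 at the lowest, 10882 at the median and 16027 at the highest in high cells, and 1184, 5952 and 9270 in low cells. In 61 of 71 high cells the sum exceeded that of every low cell. The middle cells lay between, with list medians of 0.52 for middle over low and 0.52 for high over middle.

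Genes of the spindle and its motors had the largest list median. Of 33 measured, 30 were at least 1.5-fold higher and the median log2 ratio was 1.71. Nusap1, which binds spindle microtubules, had the largest ratio of the genes named outside the score. It had 0, 184.6 and 448 CPM per cell (lowest, median, highest) in high cells and 0, 0 and 262 in low cells. The classes overlapped, but Nusap1 had a value in 69 of 71 high and 23 of 71 low cells, and its log2 ratio was 2.95 (2.52 to 3.44), with 2.66 among the shallower and 2.19 among the deeper cells. Hmmr, a spindle pole protein, followed with a log2 ratio of 2.59 (1.36 among the deeper cells), then Sapcd2 and Ckap2l with 2.51 each and the chromosome motor Kif22 with 2.49, which was 3.27 among the shallower and 0.92 among the deeper cells. The microtubule bundling protein Prc1 (2.16) and the cytokinesis motor Kif20a (1.84, and 0.74 among the deeper cells) lay in the same range, while Stmn1, which destabilises microtubules, was at -0.09.

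Checkpoint and chromosomal passenger genes, which hold anaphase until chromosomes are attached, were higher in 12 of 12 measured, 10 of them by at least 1.5-fold (median 1.31). Bub1b, the checkpoint kinase-like protein, had 52.6, 218.3 and 440 CPM per cell in high and 0, 59.1 and 166.4 in low cells, so that the median high cell exceeded every low cell. Aurkb (1.58), Cdca8 (1.40) and Birc5 (0.93), all of the passenger complex, were higher too. Among the mitotic regulators 17 of 24 were at least 1.5-fold higher (median 0.98), led by the phosphatase gene Cdc25b at 2.45 and Ccnf at 2.25. Ccna2 (0.99) and Ccnb2 (0.72) differed less than Ccnb1. Foxm1, the transcription factor of the programme, was at 1.29. The regulators with lower RNA were Mybl2, the B-MYB gene (-0.89), Wee1 (-0.57) and Pkmyt1 (-0.55), kinases that hold CDK1 inactive, Fbxo5 (-0.33) and Pbk (-0.25, but 0.25 among the shallower cells).

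Kinetochore and condensin genes were more mixed. Of 23 kinetochore genes 11 were at least 1.5-fold higher and 1 at least 1.5-fold lower, with a median of 0.55. The motor Cenpe (2.34, and 1.40 among the deeper cells), Cenpl (2.48, and 1.12 among the shallower cells) and the centromeric histone gene Cenpa (1.56) were high, whereas Cenpw, Nsl1, Cenpk, Cenpt and Spc24 lay between -0.04 and 0.07. Of 16 condensin and chromatin genes 8 were at least 1.5-fold higher (median 0.45), among them Top2a (1.10), Mki67 (1.01) and Hmgb2 (0.96). All 9 measured tubulin genes were higher in high cells, 5 by at least 1.5-fold (median 0.62). Tuba1c, an alpha tubulin, had 116.4, 391.8 and 881 CPM per cell in high and 0, 122.98 and 406 in low cells, with overlap, and a log2 ratio of 1.60.

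**Figure D2:**
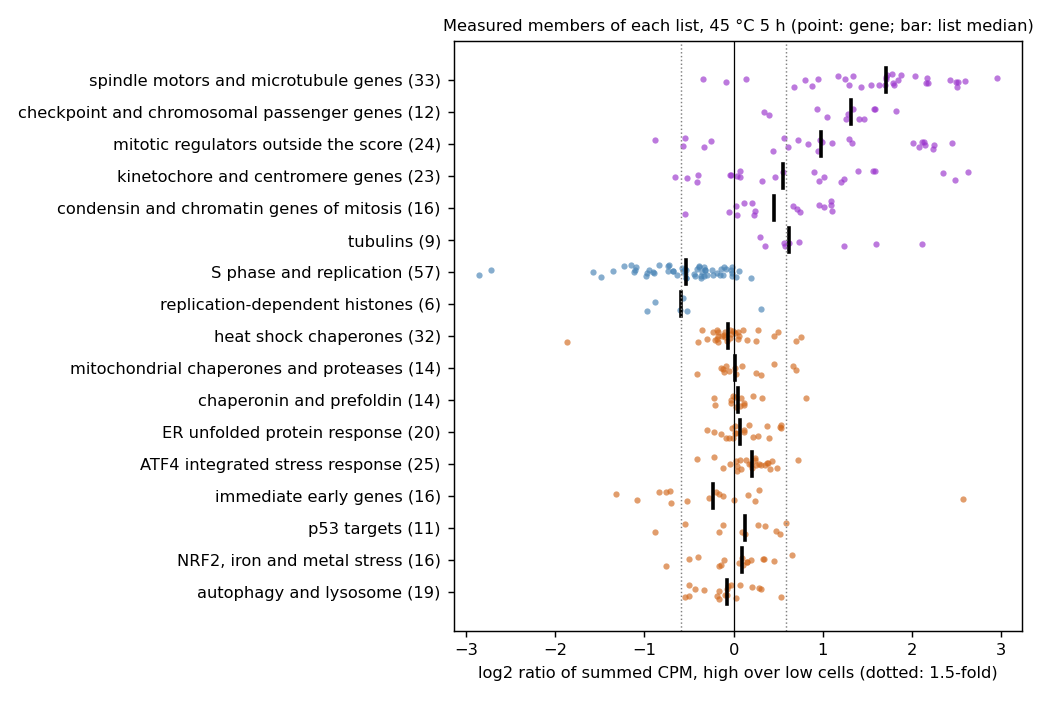
Log2 ratio of summed CPM, high over low cells at 45 °C 5 h (horizontal axis), for each measured member of 17 gene lists, with list medians as bars, the number of members in brackets and 1.5-fold as dotted lines. Mitosis and tubulin genes lie to the right, S phase genes and histones to the left, and the stress lists around 0.

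S phase genes lay the other way. Of 57 measured members of the replication list, 54 were lower in high cells, 22 by at least 1.5-fold, against 0 that were at least 1.5-fold higher, and the median log2 ratio was -0.53. The summed CPM of the list per cell was 2430, 4736 and 7762 in high cells (lowest, median, highest) and 1776, 7110 and 11718 in low cells. The ranges overlapped, but 1 of 71 high cells lay above the median of the low cells. High over middle cells gave a median of -0.39 and middle over low -0.13.

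Ung, the uracil DNA glycosylase that acts at replication forks, had the largest negative ratio of the genes named, at 11.02 CPM in high against 80.5 in low cells (log2 -2.85, -3.51 to -2.28), with -1.36 among the shallower and -2.28 among the deeper cells, and had a value in 22 high and 50 low cells. The replication licensing factor Cdc6 stood at 37.8 against 112.8 CPM (-1.57, and -0.88 among the shallower cells). Uhrf1, which carries DNA methylation through replication, had 0, 125.6 and 364 CPM per cell in high and 0, 329 and 1231 in low cells, with a log2 ratio of -1.35 (-1.55 to -1.15), which was -0.85 among the shallower and -0.87 among the deeper cells. Uhrf1 stood at 352 CPM in the 36 cells of lowest score and at 131.98 CPM in the 36 of highest score. Cyclin E2 (Ccne2, -2.72, and -0.49 among the shallower cells), the activators E2f2 (-1.49, and -0.86 among the shallower cells) and E2f1 (-1.12) and the chromatin assembly factor Chaf1b (-1.15) were lower too. The helicase genes Mcm4 (-0.84), Mcm7 (-0.72) and Mcm2 (-0.68) and the sliding clamp gene Pcna (-0.57) differed less. Pcna had 0, 225 and 684 CPM per cell in high and 0, 329 and 970 in low cells, so most of the ranges overlapped. Genes of nucleotide supply and DNA methylation, Tyms, Rrm1 and Dnmt1, stood within 0.02 of 0. The other genes among the 10 lowest were Lmna (-1.39, and -0.51 among the deeper cells), Rgs2 (-1.33), Wdr76 (-1.27), Brca1 (-1.15, and -0.48 among the shallower cells) and Atad5 (-1.15). Histone genes were measured in 6 of 69 cases, 5 of them lower; Hist1h2ao and Hist1h2ap, near-identical copies that counting could have mixed, were at -0.53 and -0.57.

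Genes on none of the cell cycle lists also stood higher in high cells. Among the highest were Kpna2 (2.19, and 0.92 among the shallower cells), an import receptor; Knstrn (1.56), a kinetochore protein; and Dbf4 (1.56, and 0.92 among the shallower cells), the activator of the replication kinase CDC7. Arl6ip1, a membrane-shaping protein of the endoplasmic reticulum, had 25.1, 236 and 662 CPM per cell in high and 0, 42.5 and 240.5 in low cells, and a log2 ratio of 2.04 (1.75 to 2.37). It had a value in 71 high and 48 low cells. Rnf26 (1.73), the nuclear envelope gene Sun2 (1.57), Jpt1 (1.36, and 0.77 among the shallower cells) and the receptor gene Cd160 (1.26, and 0.67 among the shallower cells) followed. Timm22, of mitochondrial protein import, was at 1.64, but its ratio was 0.07 among the deeper cells and ran from 1.47 to 2.10 with single cells left out.

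A different pair of genes was named after the values had been seen. Kif3a (2.41) and Ccdc36 (2.63) had matching counts: in 31 of 31 cells with at least 10 UMIs of either, their counts lay within 10% of each other, so the counting may not separate them and neither value is attributed to one gene. These cells were 18 high, 12 middle and 1 low. Among the deeper cells the ratios were -0.06 and -0.07, and leaving out 1 low cell moved them to 3.92 and 4.81.

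The heat shock chaperones as a list barely differed between high and low cells. Of 32 measured (of 40 listed), 12 were higher and 20 lower, whereas of all 7300 genes 4247 were higher and 3053 lower. At least 1.5-fold higher were 2 and at least 1.5-fold lower 1, no more than the shares of 10.4% and 4.93% among all genes. Their median log2 ratio was -0.06, with -0.26 and 0.16 as the medians of the members' interval bounds. It was -0.18 among the shallower and 0.01 among the deeper cells. Middle over low cells gave -0.04 and high over middle 0.05. Summed over cells, both classes stood above unheated cells in Hsp90aa1, Hsp90ab1, Hspa8, Hspd1 and Hspe1, by the least in Hspa8.

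Hsp90aa1, the heat-inducible HSP90, had 638, 5028 and 11764 CPM per cell (lowest, median, highest) in high cells, 2535, 5577 and 11127 in low cells and 703, 1370 and 2481 in unheated cells. Every low cell thus lay above every unheated cell, whereas the high cells reached down into the unheated range. Summed, Hsp90aa1 stood at 4851 CPM in high and 5710 in low cells (log2 -0.24, -0.27 to -0.20). Its paralog Hsp90ab1, whose reads may be split with it, had 1938, 9077 and 16901 CPM per cell in high and 6415, 10332 and 13492 in low cells (log2 -0.19). Hspa8, the constitutive HSP70, was at 2966 in high, 3637 in low and 2735 in unheated cells (-0.29). The mitochondrial chaperonin genes Hspd1 (3146 against 3347 CPM, -0.09) and Hspe1 (2511 against 2770 CPM, -0.14) differed little.

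Hsph1, an HSP70 exchange factor, stood at 1858 CPM in high, 2031 in low and 241 in unheated cells, with per-cell values of 21.8, 1759 and 4334 in high and 145.7, 1513 and 10510 in low cells. The summed and the median values therefore pointed in opposite directions, and the highest low cells lay far above any high cell. Dnajb1, an HSP40 of the inducible response, stood at 405 against 392.4 CPM (0.04, with -0.29 and -0.01 among the shallower and the deeper cells) and at 47.1 CPM in unheated cells. Bag3, the co-chaperone of selective autophagy, was the abundant exception: 0, 317 and 919 CPM per cell in high and 0, 222.1 and 723 in low cells. Its summed log2 ratio was 0.50 (0.33 to 0.66), with 0.56 and 0.70 among the shallower and the deeper cells, and unheated cells stood at 20.4 CPM. Dnajb4 (0.70) and Hspbp1 (0.46) were also higher, and Hspa13 (0.76) was, except among the shallower cells (-0.28).

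The classic inducible HSP70 gene Hspa1a was found in few cells. It had a value in 3 of 71 high cells (4.23%, 0.880 to 11.9), 6 of 74 middle cells and 9 of 71 low cells (12.7%, 5.96 to 22.7), and reached 3505 CPM in one high and 5955 CPM in one low cell. Its log2 ratio of -1.87 ran from -3.87 to -1.41 with single cells left out and was 1.11 among the deeper cells, so it rests on a few cells. Hspa1b is a near-identical copy, and reads could not be assigned between them with certainty. Hsf1, which encodes the regulator of the response, stood at 36.2 against 37.97 CPM (-0.07).

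The lowest cells of the high class reached below those of the low class. Counts of cells at or below the highest unheated cell were made after the values had been seen. For Hsp90aa1 this level was 2481 CPM, and 14 of 71 high cells lay at or below it (19.7%, 11.2 to 30.9). So did 9 of 74 middle cells (12.2%) and 0 of 71 low cells (upper bound 5.06%, with each cell taken as a separate draw). With percentiles taken anew within the shallower cells, 9 of 36 high and 0 of 36 low cells lay there. Within the deeper cells it was 5 high, 5 middle and 4 low of 36 each. These classes differ from those of all cells, since 15 of the 71 low cells lay above the median depth. The 4 deeper cells called low were therefore not of the low class above, so these counts do not separate depth from class membership. With all cells thinned to 5000 UMIs the highest unheated cell stood at 3400 CPM, a higher level. At or below it lay 20 high, 16 middle and 8 low cells. For Hsp90ab1 the counts were 15 high, 6 middle and 6 low cells, for Hsph1 18, 12 and 8, for Hspd1 23, 13 and 14, and for Hspe1 21, 10 and 8. Thinned to 5000 UMIs, with the unheated level taken anew, Hsph1 gave 25 high, 25 middle and 28 low cells. Hspd1 then gave 41, 37 and 38, Hspe1 46, 39 and 35, and Hsp90ab1 28, 21 and 21. Among the deeper cells Hsph1 gave 8, 6 and 3 of 36, Hspd1 10, 6 and 6, Hspe1 9, 5 and 8, and Hsp90ab1 7, 4 and 3. Among the shallower cells the high and low counts were 9 and 6 for Hsph1 and 12 and 11 for Hspd1. They were 10 and 5 for Hspe1 and 7 and 6 for Hsp90ab1. All 5 genes were at or below their unheated highest level in 13 high, 2 middle and 0 low cells. The reason was not tested, and no result was recomputed without these cells, since that would sort cells by the outcome. With values that are not whole set to 0, and the classes and the unheated level taken anew, the shares were 43.7% of high and 29.6% of low cells. Hsp90aa1 had not been a whole number in 20 of these high and 21 of these low cells.

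The summed CPM of the whole chaperone list had the same order of classes. Its best counted members were Hsp90ab1 and Hsp90aa1, at 8931 and 4851 CPM over the high cells, so it repeats much of their counts. The sum was 9062, 24525 and 36802 CPM per cell in high cells (lowest, median, highest), 13828, 25631 and 46911 in middle cells, 18325, 26836 and 45878 in low cells and 8913, 13095 and 16609 in unheated cells. At or below the highest unheated cell lay 14 of 71 high, 3 of 74 middle (4.05%, 0.844 to 11.4) and 0 of 71 low cells. With all cells thinned to 5000 UMIs the highest unheated cell stood at 18000 CPM and the counts were 14, 5 and 1. With Rn45s left out of the totals it stood at 19738 CPM and the counts were 13, 3 and 0. With percentiles taken anew by depth, 8 of 36 high and 0 of 36 low shallower cells lay at or below 16609 CPM. Among the deeper cells it was 5 and 1. The 10th percentile of Hsp90aa1 over 6 score bins of 36 cells was 3307, 3729, 3356, 2215, 1978 and 1178 CPM from the lowest to the highest score, while the medians moved between 4865 and 5678 CPM. Over the cells of all 3 classes the rank correlation with the score was -0.19 for Hsp90aa1 and -0.00 for Hsph1, against 0.74 for Nusap1 and -0.56 for Uhrf1, all from cells of 1 sample that share their depth with the score.

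**Figure D3:**
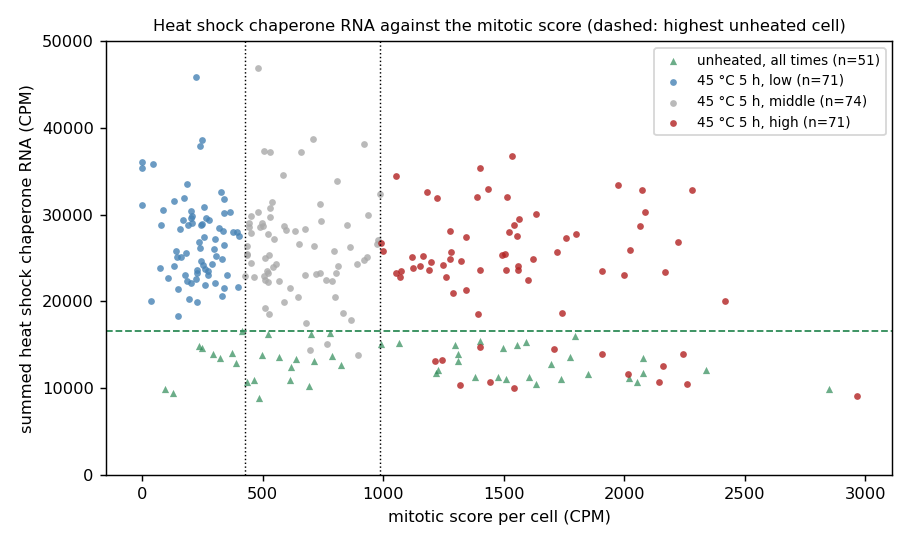
Summed CPM of the heat shock chaperone list (vertical axis) against the mitotic score (horizontal axis, CPM) per cell, for the 3 classes at 45 °C 5 h and for unheated cells. Dotted lines are the score cuts and the dashed line is the highest unheated cell at 16609 CPM, below which lie 14 high, 3 middle and 0 low cells.

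**Figure D4:**
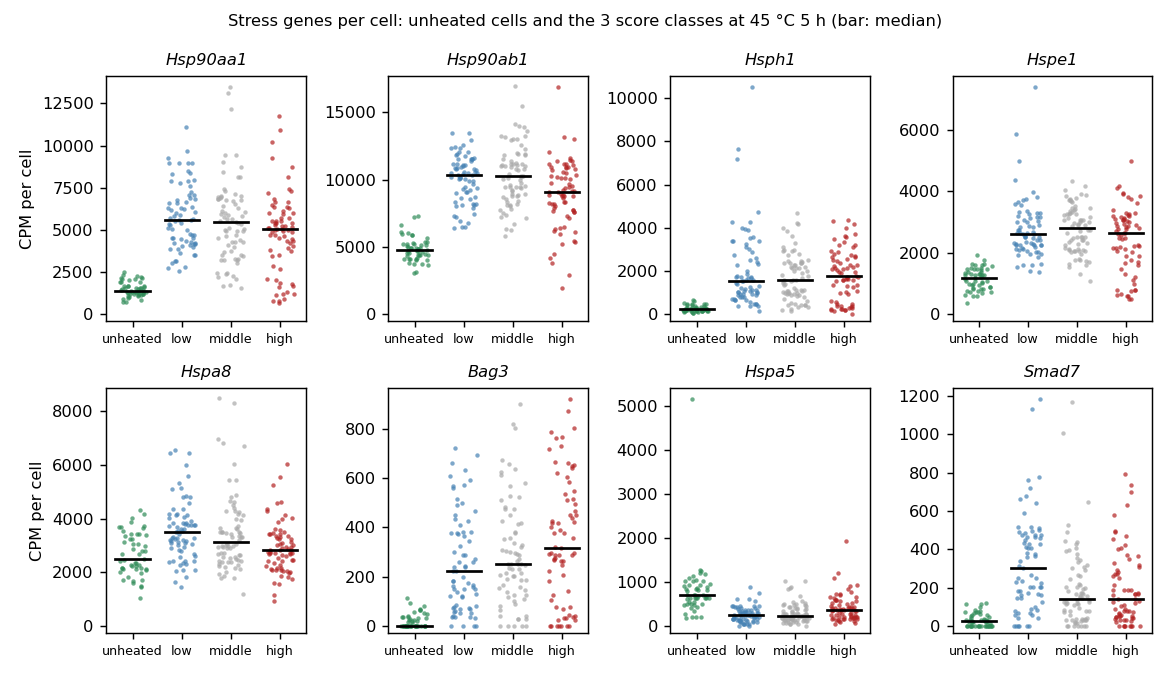
CPM per cell (vertical axes, each from its own 0) of 8 stress genes in unheated cells and in the low, middle and high classes at 45 °C 5 h, with medians as bars. High cells of Hsp90aa1 reach down to 638 CPM and low cells to 2535 CPM, while the medians lie close together.

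Other stress programmes were close to the background of all genes. Of 20 genes of the unfolded protein response of the endoplasmic reticulum, 0 passed 1.5-fold in either direction (median 0.07). Hspa5, the BiP chaperone and the largest of them, had 53.6, 366 and 1938 CPM per cell in high and 0, 243 and 897 in low cells, with broad overlap. Its log2 ratio was 0.53 (0.37 to 0.69), with 0.36 and 0.21 among the shallower and the deeper cells, and both classes lay below the 726 CPM of unheated cells. Of 25 ATF4 target and amino acid response genes 21 were higher, 1 by at least 1.5-fold (median 0.20). Among the shallower cells the median was 0.29, but among the deeper cells it was -0.02, with 12 genes higher and 13 lower. Atf4 itself stood at 343 CPM in high, 258 in low and 604 in unheated cells (0.41), Psat1, of serine synthesis, was at 0.43 and the pseudokinase gene Trib3 at 0.49. The largest member was Ppp1r15a (0.72, and 0.17 among the deeper cells), the phosphatase subunit that ends the response, and the smallest Chac1 (-0.41, but 0.28 among the deeper cells). The stress factor Ddit3 was at -0.22, with 0.47 among the shallower and -1.17 among the deeper cells. The chaperonin list (median 0.05) and the mitochondrial chaperones and proteases (0.02) stood at the background, with Pfdn2 (0.81) and Timm44 (0.70) as their largest members.

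Immediate early genes leaned lower in high cells. Of 16 measured, 11 were lower, with a median of -0.23 and -0.78 and 0.12 as the medians of the members' bounds. At least 1.5-fold lower were 6 (37.5%, against 4.93% of all genes) and higher 1 (6.25%, against 10.4%). Among the shallower cells 2 of 12 were at least 1.5-fold lower (median -0.12), and among the deeper cells 5 of 16 (median -0.44). Ier2, the best counted with Jund (-0.12), stood at 130 CPM in high, 186.97 in low and 69.6 in unheated cells (-0.52), with -0.58 and -0.48 among the shallower and the deeper cells. Nr4a1 (-0.83), Junb (-0.72, but 0.29 among the shallower cells) and Ier5 (-0.70) were lower too, and Fosl2 was the lowest at -1.32. Egr1 had a value in 12 high and 10 low cells, and its ratio of -1.08 ran from -1.46 to -0.39 with single cells left out and was 0.15 when the score was taken from thinned cells. Myc went the other way at 22.05 against 3.45 CPM (2.57, with 3.40 and 1.18 among the shallower and the deeper cells), below the 70.6 CPM of unheated cells, with a value in 20 high and 4 low cells.

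Regulators of cell death and the remaining stress lists showed single genes rather than a shift. Of 20 apoptosis genes 2 were at least 1.5-fold higher (10%, against 10.4% of all genes) and 3 lower (15%, against 4.93%), with a median of -0.01. Bcl2l11, which encodes the death promoter BIM, was at 17.7 against 48.9 CPM (-1.46), Bbc3, the PUMA gene, at 27.6 against 50.6 (-0.88), and the caspase inhibitor gene Cflar at 148.03 against 109.3 (0.44). The 11 measured p53 targets had a median of 0.13, and Cdkn1a was counted with 4 UMIs in high and 0 in low cells. The NRF2 and metal list was at 0.10, where Sqstm1, the autophagy receptor p62, stood at 154.7 against 219.2 CPM (-0.50, and -0.09 among the deeper cells) and Osgin1 at -0.76 (-1.17 to -0.08 with single cells left out). Hmox1 had 6 and 5 UMIs. Autophagy and lysosome genes were at -0.08, the proteasome at 0.08 and ribosome biogenesis at 0.04. Of 81 cytosolic ribosomal protein genes 70 were lower, 0 of them by 1.5-fold (median -0.08).

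Among noncoding RNAs, Malat1, a long nuclear RNA, was higher in high cells. It had 255, 833 and 3013 CPM per cell in high and 63.6, 606 and 2135 in low cells (0.49, with 0.28 and 0.31 among the shallower and the deeper cells), and 563 CPM in unheated cells. Rn4.5s, a short RNA of polymerase III, was at 5365 against 5605 CPM (-0.06), 334 CPM in unheated cells, with ratios of 0.60 and -0.60 among the shallower and the deeper cells. The protein-coding gene Smad7, an inhibitor of TGF-beta signalling, was at 192.1 CPM in high, 310 in low and 30.3 in unheated cells (-0.69), but at -0.41 and -0.17 among the shallower and the deeper cells. Rpph1 and Rmrp are RNA parts of processing enzymes. Rpph1 was at -0.50, with -0.05 and -0.20 among the shallower and the deeper cells, and Rmrp at -0.57, with 0.72 and -1.42. The small nucleolar RNA host Gas5 was at 0.22, with 0.06 and 0.10.

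The same division was made in 2 other sets of cells, with percentiles taken within each: 15 high and 15 low of the 45 heated cells at 10 h that passed the filters, and 17 and 17 of the 51 unheated cells. At 10 h, 16.8% of 4923 measured genes stood at least 1.5-fold higher in high cells and 10.8% lower. In unheated cells the shares were 12.9% and 8.57% of 6688 genes. Differences between the sets were not tested, and the smaller sets have wider intervals. High cells again held more UMIs, with medians of 25602 against 19887 UMIs at 10 h and 43064 against 32448 UMIs unheated.

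The mitosis and S phase lists had the same signs in all 3 sets, whereas the G1 and quiescence regulators were at -0.05 at 5 h, -0.05 at 10 h and 0.25 in unheated cells. Mitosis genes outside the score had medians of 1.10 at 5 h, 0.93 at 10 h (59 of 88 at least 1.5-fold higher) and 0.67 unheated (59 genes, or 55.1%). S phase genes had medians of -0.53, -0.35 and -0.78, with 22 of 57, 18 of 50 and 37 of 57 at least 1.5-fold lower. Heat shock chaperones had medians of -0.06 at 5 h, -0.31 at 10 h (6 of 27 at least 1.5-fold lower) and -0.11 unheated (2 of 29). At 10 h Hsph1 (-0.94) and Dnajb1 (-1.16) were lower in high cells, and Hsp90aa1 was at -0.23 there, -0.24 at 5 h and -0.26 in unheated cells. At 10 h, 4 of 15 high (26.7%) and 5 of 15 low cells (33.3%) had a chaperone sum at or below the highest unheated cell, so the low tail was present in both classes there.

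Hspa5 and Atf4 were among the named genes that differed in sign between the sets. At 5 h, at 10 h and in unheated cells Hspa5 was at 0.53, -0.58 and -0.25, and Atf4 at 0.41, -0.39 and 0.32. In the same order Sqstm1 was at -0.50, -0.32 and 0.66 (unheated 0.04 to 1.33). Bbc3 was at -0.88, 0.08 and 1.82 (unheated 17 against 3 UMIs, 0.21 to 4.41). Bag3 was at 0.50 at 5 h and at -0.32 at 10 h (24 against 22 UMIs, -1.22 to 0.58). In unheated cells Bag3 was at 1.15 (20 against 6 UMIs, -0.14 to 2.84), so the intervals of both other sets held 0. The ATF4 list had medians of 0.20, -0.05 and 0.31, the immediate early genes -0.23, -0.45 and -0.17. Malat1 kept one sign (0.49, 0.35 and 0.48). Smad7 was at -0.69, -0.16 and -0.36, but its intervals at 10 h (-0.87 to 0.58) and in unheated cells (-1.35 to 0.65) held 0. Myc was at 2.57 at 5 h and 0.93 in unheated cells, and at 10 h it had 8 UMIs in high and 0 in low cells, too few to be measured.

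**Figure D5:**
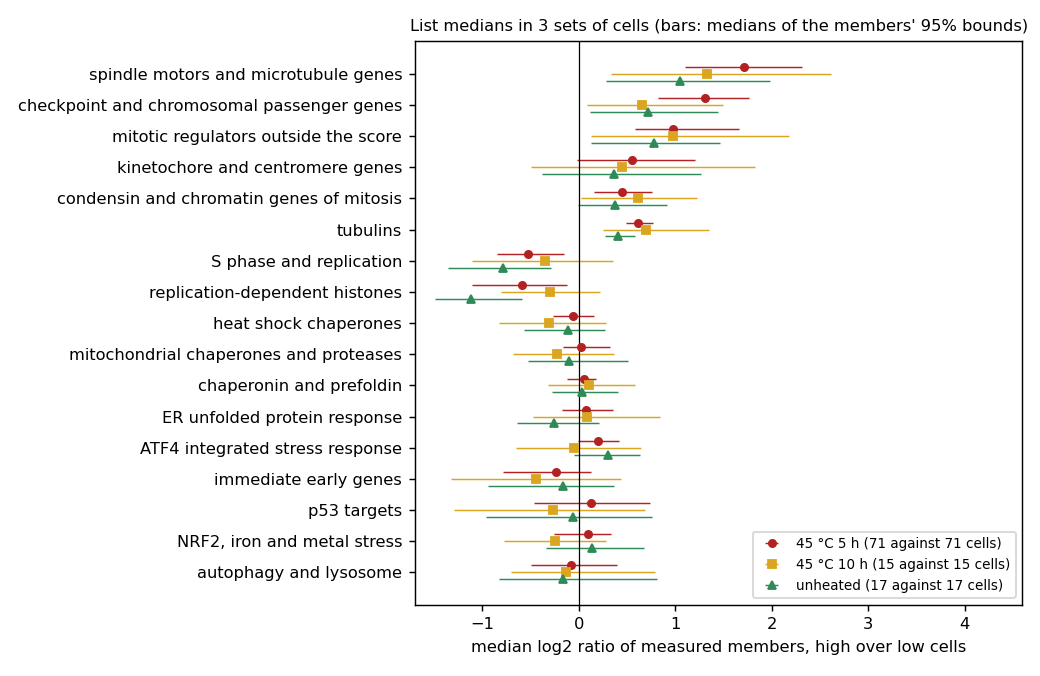
Median log2 ratio of the measured members of 17 gene lists, high over low cells (horizontal axis), in heated cells at 5 h (71 against 71), heated cells at 10 h (15 against 15) and unheated cells (17 against 17), with bars from the median of the members' lower to that of their upper 95% bounds. Mitosis lists lie right of 0 and S phase genes left of it in all 3 sets, and the heat shock chaperone medians are -0.06, -0.31 and -0.11.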

How the data were processed

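The deposited table holds estimated counts of UMIs per gene and cell, not scaled; 5.30% of its values above 0 were not whole, and sums were rounded. Per the submitters' processing notes, STAR was used with mm10; they state no version. For the counting program, the annotation and any cell filter, details were not given in the sources used here; 0 columns of per-sample values were left unused. Per the labels' protocols, RNA was primed with oligo-dT and a molecular barcode, so values report 3' fragments.

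UMIs were summed over the cells of a class and divided by the class total (CPM). Each sum had 0.5 UMI added before the log2 ratio. CPM have exact Poisson intervals, ratios exact conditional binomial (Clopper-Pearson) intervals and shares of cells exact Clopper-Pearson intervals, at 95%. Those of CPM and ratios cover counting error only, and those of shares treat each cell as a separate draw. Cells are not replicates, no cultures are named and no test was made. No doublet caller was run on the picked cells, and 0 pairs of cells had identical values. The ratios and intervals were run on simulated Poisson counts with a shared mean per gene and known folds. Such counts lack the variation between real cells, so this run does not show how the intervals fare with it.

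The members and the gene lists were chosen with earlier results of these data known. Named genes were the score genes, the 10 highest and 10 lowest candidates by the interval bound nearest 0, the 10 highest outside the cell cycle lists, the largest, smallest and best counted members of each stress list, and a set panel. A candidate had at least 50 CPM and a value in at least 50% of cells on its higher side. It kept its direction in the mean of per-cell CPM, among shallower and deeper cells, and with any cell left out. It was no predicted and no ribosomal protein gene. There were 411 candidates with higher and 215 with lower values in high cells. One gene that this rule chose is not reported here. Other members of the lists are named as examples. Alternatives changed the cuts, the score, cell and gene filters, depth, scaling and whole values. Promoters came from RefSeq (GRCm38.p6). Python 3.11.15, numpy 2.4.6, scipy 1.17.1, pandas 2.3.3 and matplotlib 3.10.9 were used.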

Additional observations from a re-analysis of the deposited data

Results flagged for a closer look

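In the 3 groups of 6 cells, 18 sets of per-cell values were checked for a single cell far from the others, and 1 was found. Among the 37 °C cells taken at 10 h, the highest Hsp90aa1 value was 2079 CPM, while the next was 1531 CPM and the group median 1438 CPM. The gap was 0.629 of the group's range. Chance gives about 1 such gap in 20 groups. This cell lies below the 2481 CPM of the highest unheated cell, so it does not set the level against which the heated cells were counted.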

How the results depend on the processing

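Cells and lists were compared under 14 alternative settings. The list medians kept their side of 0, from 0.75 to 1.25 for mitosis genes, from -0.59 to -0.39 for S phase genes and from -0.18 to -0.02 for heat shock chaperones, except that the chaperone median was 0.01 among the deeper cells. Genes at least 1.5-fold lower in high cells were 360, or 4.93% of those measured. They became 2.43% with the cells split at the median score (0.486 times as many genes), 227 genes (3.14%) with the score taken from cells thinned to 5000 UMIs and 545 genes (8.41%) among the shallower cells. With at least 1 UMI per gene, 22.1% (2813 genes) were higher and 13.6% (1737) lower, and with at least 200 UMIs, 3.77% were higher and 1.49% (46) lower, since other genes are then counted. Scaling by the median ratio moved the median of all genes by -0.06 and gave 625 higher and 451 lower genes. The share of high cells with Hsp90aa1 at or below the highest unheated cell was 43.7% with values that are not whole left out, which sets them to 0. Leaving out each cell in turn gave 10.02% to 10.9% higher genes, 4.65% to 5.51% lower genes, medians of 1.06 to 1.13 for mitosis genes, -0.55 to -0.46 for S phase genes and -0.09 to -0.03 for chaperones, and shares of 18.6% to 20% for Hsp90aa1.

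Of 1116 values of 93 named genes under these settings, 1063 kept their direction, and 65 genes kept it in every setting. Part of this tally was fixed beforehand. The split sets the direction of the 8 score genes. Genes named as candidates were chosen for keeping theirs in the mean of per-cell CPM and in both depth ranges, which are among the settings. Among genes that stood at least 1.5-fold from even, 6 changed sign: Egr1 at 0.15 with the thinned score, Hspa13 at -0.28 among the shallower cells, and Hspa1a at 1.11, Cdkn1a at -0.11, Kif3a at -0.063 and Ccdc36 at -0.067 among the deeper cells. The other changes of sign were in genes nearer to even, such as Dnajb1, which kept its direction in 4 of 12 settings, Ddit3 (7 of 12), Rn4.5s (9 of 12) and Rmrp, which reached 0.72. The cause was not tested. No paired analysis was possible because the cells of a group carry only a number, high and low cells are parts of 1 group, and no test was made. Depth limits genes of few UMIs such as Hmox1 and Cdkn1a, and the low class, with fewer UMIs per cell, has the wider intervals.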
